A study of Mus musculus with 24 samples.

Results

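The regions described here are the 9276 HindIII fragments of mouse chromosome 11 that start 2 to 20 Mb from a mutated Oct4 allele, out of 31865 fragments listed for the chromosome. They were chosen by distance, from fixed starts on either side of the viewpoint fragment at chr11:94813216-94826180 (mm9), and not by their own counts. Of these fragments, 4788 lie on the lower side, between 74814752 and 92816988, and 4488 on the higher side, between 96827638 and 114833227. The viewpoint is the fragment from which contacts were read, and it was taken as the most counted fragment of the chromosome because the labels give no position. Contacts were measured by paired-end 4C sequencing, in which crosslinked chromatin is cut with HindIII and ligated, and the fragments joined to the viewpoint are counted.

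The cells were mouse embryonic stem cells of strain C57Bl/6 x 129/Sv at passage 7, in the lines OCF2ΔOCT4/SOX2 and OCF2ΔYY1, which are referred to here as OctSox line and YY1 line. Each line was sampled at day 0 and at day 3, with 2 biological replicates per group, which gives 4 groups and 8 libraries for this viewpoint. In each line the mutated allele carries the name of that line, so line and allele cannot be told apart. The series is titled as a study of pairing between homologous Oct4 alleles at the onset of differentiation, but the labels used here name no agent applied between the days. Nor do they say how many clones a line stands for, and a 4C count holds no expression, so the cell type could not be checked against marker genes.

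Oct4 is the product of Pou5f1, a POU domain transcription factor without which embryonic stem cells lose pluripotency. In interphase nuclei the number of contacts between loci of a chromosome falls with the distance between them. On top of that fall, active and inactive stretches of a chromosome tend to meet stretches of their own kind over many megabases. OCT4 and SOX2 bind composite sites together, and YY1 is a zinc finger protein known to take part in DNA looping.

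The libraries differed widely in depth, from 2935 to 260509 counts in all and from 680 to 79433 counts on the fragments 2 to 20 Mb away. The shallowest in each line was replicate 2 of day 3, with 819 such counts in the OctSox line and 680 in the YY1 line, and the deepest was replicate 1 of day 0 in the YY1 line. Shares are given as a percentage of all counts outside the viewpoint fragment and its immediate neighbours. Intervals are 95% Wilson intervals, which treat every count as independent and leave out the spread between replicates. Reads carry no molecular identifiers and duplicates were not removed, so the intervals may be too narrow even for counting error.

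Between 21.4% and 33.1% of the contacts of the mutated allele, depending on the library, fell on the fragments 2 to 20 Mb away. Replicates 1 and 2 of the OctSox line had 21.4% and 33.1% at day 0, then 25.7% and 25.5% at day 3. Those of the YY1 line had 31.5% and 30.6% at day 0, then 29.9% and 24.1% at day 3. Day 0 replicates of the OctSox line lay farther apart than any day or line means, and the groups overlapped. The mean was 26.3% ± 2.51 (SD, n = 4) at day 3 and 29.2% ± 5.24 (SD, n = 4) at day 0, a difference of -2.84 percentage points. An exact two-sided permutation of days within lines gave p = 0.389, and 0.681 after Benjamini-Hochberg adjustment over 7 measures; the smallest p this design allows is 0.0556. Between lines the means were 29.0% ± 3.34 in the YY1 line and 26.4% ± 4.85 in the OctSox line (SD, n = 4 each; exact permutation of lines within days, p = 0.5, adjusted 0.875).

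The counts were divided nearly evenly between the sides. In the order day 0 replicates 1 and 2, then day 3 replicates 1 and 2, which is kept below, the lower side of the OctSox line had 10.3%, 15.4%, 13.1% and 14.3%, and that of the YY1 line 14.3%, 13.8%, 13.6% and 11.7%. The higher side had 11.1%, 17.7%, 12.6% and 11.2% in the OctSox line, against 17.1%, 16.8%, 16.3% and 12.4% for the YY1 line. Counts per fragment were higher on the higher side in 7 of 8 libraries, the exception being replicate 2 of day 3 in the OctSox line. The mean log2 ratio of higher over lower counts per fragment was 0.19 ± 0.21 (SD, n = 8), or 1.14-fold, with p = 0.0547 by an exact two-sided sign-flip test over libraries. All libraries share the same fragments, so that p measures only how steady the ratio was over libraries. Without the exception, a library singled out by its sign, the ratio was 0.26 and the exact p was 0.0156. All 7 ratios left were positive, so that p was fixed at the smallest the sign-flip test allows and adds no support. With all 8 libraries and each covered fragment counted once, the ratio was 0.14 and the exact p 0.0234. The side of 0.05 on which this result lay thus depended on 1 shallow library and on the processing.

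**Figure D1:**
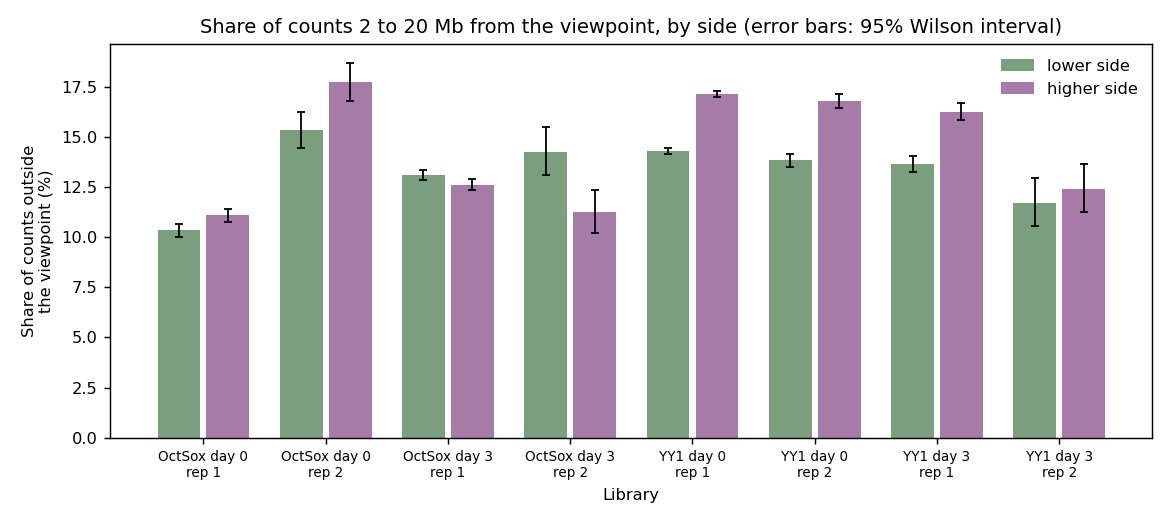
Share of counts outside the viewpoint (y axis, percent) on the lower and the higher side, 2 to 20 Mb away, in each of the 8 libraries (x axis); error bars are 95% Wilson intervals. The higher side bar is the taller in 6 of the 8 libraries, and the shares range from 10.3% to 15.4% on the lower side and from 11.1% to 17.7% on the higher side.

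The higher side's part of these counts was 51.7%, 53.6%, 49.1% and 44.1% for the OctSox line, against 54.5%, 54.8%, 54.4% and 51.5% for the YY1 line. Both day 3 libraries were thus below both day 0 libraries within each line. The mean difference between days was -3.92 percentage points, -6.10 in the OctSox line and -1.74 in the YY1 line, and the exact permutation p of 0.0556 is the smallest the design can give (adjusted p = 0.389). The YY1 line was higher than the OctSox line by 4.17 percentage points with the same p and adjusted p. Neither difference passed the threshold, and counting each covered fragment once turned the sign of the line difference (-0.64 percentage points).

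Although the sides held similar totals, contact ran along them in different ways. The decay slope, the change in log count per fragment for each unit of log distance in a Poisson regression, was between -1.04 and -0.750 on the higher side. On the lower side it lay between -0.029 and 0.296, above 0 in 7 of the 8 libraries, so the fitted line showed no general decline with distance there. In every library the lower side slope was above the higher side slope, and the ranges did not overlap. Neither slope differed detectably between days (difference of -0.040 on the lower side, exact permutation p = 0.778, and 0.0061 on the higher side, p = 0.889) or lines (-0.013, p = 0.944, and -0.048, p = 0.667).

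To see where along the chromosome the contacts lay, counts were summed in 36 windows of 1 Mb, 18 a side. Contact density is the share of the 2 to 20 Mb counts in a window divided by its share of the fragments, so that 1 is the mean of all these fragments. The window 2 to 3 Mb on the higher side (chr11:96826181-97826180) had the highest density of all in both lines. The OctSox line libraries had densities of 2.32, 3.96, 3.05 and 3.29 there, and the YY1 line libraries 3.10, 3.27, 3.90 and 2.83. The next window out, 3 to 4 Mb, was second in both lines, with 2.46, 2.46, 3.22 and 1.50 for OctSox and 2.71, 2.66, 2.78 and 2.82 for YY1. The means over all libraries, 3.22 ± 0.54 and 2.58 ± 0.50 (SD, n = 8), stood close together, and the libraries of the neighbouring windows overlapped.

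The mirror windows on the lower side were among the poorest. At 2 to 3 Mb the density there was 0.17, 0.36, 0.19 and 0.69 for OctSox and 0.41, 0.34, 0.31 and 0.18 for YY1, and at 3 to 4 Mb it ranged from 0.30 to 0.74. Taken as 1 stretch, 2 to 4 Mb on the higher side had a density of 2.87 ± 0.35 and the same stretch on the lower side 0.39 ± 0.088 (SD, n = 8). The ratio was 7.65 on average and ran from 3.91 to 9.78, with no overlap between sides in any library. Beyond 8 Mb the order of the sides was the other way: the density from 8 to 20 Mb was 0.72 ± 0.049 on the higher side and 0.92 ± 0.081 on the lower side, and the ratio was 0.59 to 0.88, below 1 in all 8 libraries. These stretches were marked out after the profile was seen and are given as a description with no test.

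Contact on the lower side had its crest not near the viewpoint but 6 to 8 Mb from it. The window 6 to 7 Mb had densities of 1.88 ± 0.31 and the window 7 to 8 Mb of 1.97 ± 0.41 (SD, n = 8), and both were above 1 in all 8 libraries. In the OctSox line the latter came next after the 2 leading windows. On the higher side the windows at 6 to 7 Mb (1.78 ± 0.42) and 7 to 8 Mb (1.92 ± 0.32) also stood above 1 in all libraries, the latter next after the leading windows in the YY1 line, following a dip at 4 to 5 Mb (0.85 ± 0.34). These crests did not differ beyond their spread. Together with the windows at 2 to 4 Mb on the higher side they make up the 6 windows that exceeded the mean in every library.

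The 3 poorest windows of all lay at 13 to 14 and at 15 to 17 Mb on the higher side. At 15 to 16 Mb the density was 0.24, 0.16, 0.17 and 0.040 for OctSox, against 0.15, 0.13, 0.26 and 0.096 for YY1. At 16 to 17 Mb it was 0.33, 0.25, 0.20 and 0 for OctSox, against 0.16, 0.25, 0.13 and 0 for YY1. Both zeros came from the shallow day 3 replicates. With counts taken as independent, the upper limit set by 0 counts there is a share of 0.0934% (OctSox) and 0.106% (YY1). The window 13 to 14 Mb, at 0.31 ± 0.12 (SD, n = 8), was the next lowest in both lines. In all, 9 windows fell below the mean in every library, and the 3 lowest windows were the same in both lines.

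**Figure D2:**
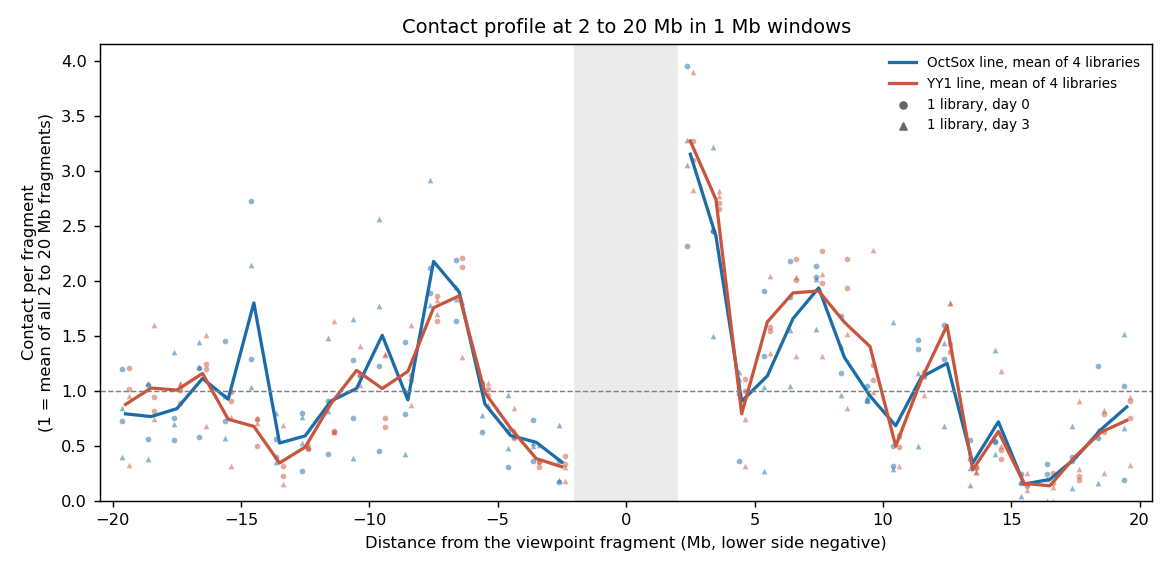
Contact density in 1 Mb windows (y axis; 1 is the mean of all fragments 2 to 20 Mb away) against distance from the viewpoint (x axis, Mb, lower side negative); points are single libraries and lines are means of 4 libraries per line. The crest at 2 to 4 Mb appears on the higher side, where means reach 3.22, while the facing windows on the lower side lie below 1 in all libraries.

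The course of contact over the windows was alike in both lines at this scale. Of the 10 windows with the highest density in the OctSox line, 8 were among the 10 highest of the YY1 line, and of the 10 lowest, 9 were shared. Spearman's rho between libraries over the 36 windows was 0.342 to 0.908 for the 16 pairs from different lines, with a median of 0.761, and 0.473 to 0.975 for the 4 replicate pairs, with a median of 0.690. These correlations describe the profiles and carry no p, since all libraries share the same fragments. The lowest values came from pairs that include replicate 2 of day 3 in the OctSox line, and the rho of its pairs did not exceed 0.488.

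Contact density went with the number of HindIII fragments in the window. Over the 36 windows of the mean profile Spearman's rho between density and fragment number was -0.72, and from -0.755 to -0.403 in single libraries. When the share of counts per window was used in place of the density per fragment, rho was -0.65. The 19 windows with 193 to 258 fragments held all of the 10 highest densities and 1 of the 10 lowest. The 17 windows with 260 to 311 fragments held none of the 10 highest and 9 of the 10 lowest. With distance from the viewpoint, rho was -0.77 on the higher side and 0.08 on the lower side (18 windows each). Fragment number also reflects fragment length and base composition, and their part in the contact profile was not tested.

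**Figure D3:**
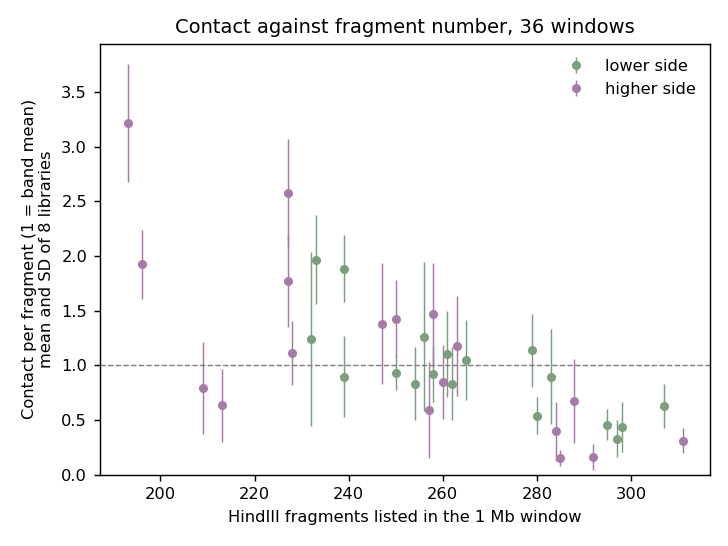
Contact density (y axis, mean and SD of 8 libraries; 1 is the mean of all fragments) against the number of HindIII fragments in each of the 36 windows (x axis), coloured by side. Windows with 260 or more fragments have mean densities of 0.16 to 1.18, and those with fewer of 0.59 to 3.22.

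Fragments with counts in several libraries were more frequent among longer ones. Of the 1848 fragments of 1000 to 2000 bp, 8.23% had a count in 4 or more of the 8 libraries, against 19.5% of the 1019 fragments of at least 8000 bp. In replicate 1 of day 0 in the OctSox line, 11.7% and 22.8% of these length classes were covered. Single libraries did not all follow this order. In the deepest library 55.6% and 60.0% of these classes were covered, but 64.2% of the 1016 fragments of 500 to 1000 bp. In the shallow library of the YY1 line 2.33% of the fragments of 1000 to 2000 bp were covered, against 2.06% of those of at least 8000 bp.

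Most fragments were seen in few libraries. No library had a count on 2955 of the 9276 fragments, and 1500 were covered only by the deepest library. Counts in both lines were found on 2752 fragments, in the OctSox line alone on 454 and in the YY1 line alone on 3115. The YY1 line held 100512 of the 127432 counts pooled over libraries, and these sets were not corrected for depth. Nor were they set beside the same split over all fragments of the chromosome, so they show nothing particular to these fragments. In the deepest library 5259 fragments were covered, and in the 2 shallow ones 254 and 215.

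At a common depth of 680 counts, the expected number of covered fragments was 463, 342, 486 and 233 for OctSox, against 586, 523, 533 and 215 for YY1. The shallow libraries remained lowest in each line after this correction. At full depth, without this correction, their counts were the most concentrated: the 10 most counted fragments held 22.5% and 20.4% of the 2 to 20 Mb counts there, against 2.17% to 14.5% in the other 6 libraries. That part was not compared at a common depth. The difference between days was -112 fragments (exact permutation p = 0.389, adjusted 0.681) and turned to 31 fragments with the shallow libraries left out.

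Only 6 fragments had counts in all 8 libraries, and 93 had counts in at least 6. On the lower side these 6 were the fragments starting at 77968891, 80690671, 86844232 and 87584933, and on the higher side those starting at 96870465 and 97973279. The last of these (1883 bp, 3.15 Mb away) had 1, 2, 7 and 2 counts in the OctSox libraries, and 15, 7, 43 and 6 in those of YY1. The fragment starting at 96870465, the nearest to the viewpoint, had 3, 2, 7 and 4 counts in the OctSox libraries, and 83, 44, 6 and 4 in those of YY1. In shares the latter were 0.0086% to 0.125% against 0.023% to 0.142%, so the lines overlapped.

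The fragment chr11:80690671-80697635, of 6965 bp and 14.1 Mb from the viewpoint on the lower side, was the most counted in 3 of the 4 libraries of the OctSox line. It had 111, 93, 74 and 34 counts there and 5, 2, 6 and 4 counts in those of the YY1 line, of which the day 0 libraries were deeper and the day 3 libraries shallower than their OctSox counterparts. Its shares were 0.319%, 1.49%, 0.115% and 1.06% for OctSox, against 0.0020%, 0.0049%, 0.023% and 0.142% for YY1. Of the YY1 line, 3 libraries lay below all those of the OctSox line, while the shallow replicate 2 of day 3, with 4 counts and an interval of 0.055% to 0.364%, lay above replicate 1 of day 3 in the OctSox line (0.091% to 0.144%). The 20 nearest fragments, 10 a side, held 2 to 19 counts together in the libraries of the OctSox line, so the high counts did not extend to its surroundings.

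**Figure D4:**
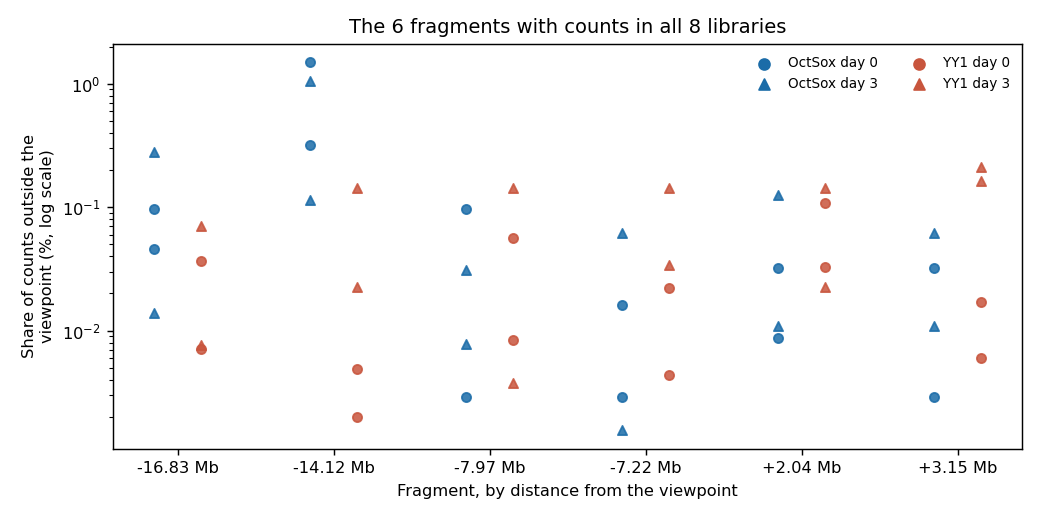
Share of counts outside the viewpoint (y axis, percent, log scale) for the 6 fragments with counts in all 8 libraries, placed by distance from the viewpoint (x axis, Mb, lower side negative); each point is 1 library. At the fragment 14.1 Mb away on the lower side the OctSox line libraries lie between 0.115% and 1.49%, above 3 of the 4 YY1 line libraries, and at the other 5 fragments the lines overlap.

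Tested over all fragments of the chromosome with enough counts, this fragment was lower in the YY1 line by a log2 fold change of -5.25 ± 1.38 (SE; edgeR quasi-likelihood test, adjusted p = 0.0321). The fragment passed the filter on low counts through the OctSox line, where its counts were high, so the filter favoured this direction. It was the only call among the 231 fragments at 2 to 20 Mb that entered the line comparison, in which 0.455% of all 659 fragments were called. Of the 231, 24 had an unadjusted p below 0.05, beside 42 of all 659. DESeq2 also called it alone among these fragments (adjusted p = 0.000103). The call was lost with each of the 8 libraries left out in turn (adjusted p of 0.358 or more by edgeR), while the log2 fold change stayed between -5.67 and -4.07. It was also lost with a minimum count of 5 (adjusted p = 0.298).

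The other fragments with the largest mean shares owed them mostly to a shallow library. In the OctSox line the fragment starting at 87415073 had 7, 0, 0 and 23 counts, that at 83775907 had 0, 0, 7 and 21, that at 99647396 had 0, 0, 0 and 19, and that at 108938766 had 0, 0, 0 and 18. In the YY1 line the leading fragment, starting at 100071937, had 0, 0, 0 and 21 counts, and the fragments at 98462582, 85640560, 87956497 and 108908865 had 14 to 17 counts in the same library. The fragment at 85640560 also had the highest count of the OctSox libraries, 149 in replicate 1 of day 3, and 0 in 2 of the others. A few counts weigh heavily where the total is small, and in none of these did all 4 libraries of a line hold a count except at 98462582. There the YY1 line had 98, 19, 1 and 17 counts and the OctSox line none, with an edgeR log2 fold change of 8.69 ± 2.59 that did not pass (adjusted p = 0.131). With 3 counts over the OctSox line as the floor, its pooled share was 15.2-fold higher in the YY1 line. That value leaves out counting error in the YY1 line, where 98 of the counts came from 1 library. The fragment starting at 104096098 had a like pattern, with 98, 1, 17 and 7 counts in the YY1 line and none in the OctSox line (7.98 ± 2.69, adjusted p = 0.259). With no counts in the OctSox line, both fragments passed the filter on low counts through the YY1 line alone. The direction of their values was thus set by the filter.

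Between days in the OctSox line, 2 of the 18 fragments tested at 2 to 20 Mb were called higher at day 3 by edgeR, where 1.43% of all 210 tested fragments were called. The fragment chr11:85256152-85258451 had 0, 0, 32 and 2 counts (log2 fold change 6.92 ± 1.70, adjusted p = 0.0121). The fragment chr11:76046580-76050286 had 0, 0, 36 and 2 counts (7.02 ± 1.88, adjusted p = 0.0219). Nearly all of these counts came from replicate 1 of day 3, the deeper library. In shares the day 3 replicates had 0.0497% and 0.0623% at the first fragment and 0.0559% and 0.0623% at the second. The values of replicate 2 rest on 2 counts each. With no counts at day 0, both passed the filter on low counts through day 3 alone, so the direction of these calls was set by the filter. Against a floor of 3 counts over day 0, their pooled shares were 6.87-fold and 7.68-fold higher at day 3. The floor covers counting error at day 0 alone, and the error of the day 3 counts was left out. In the YY1 line the first of these 2 fragments had 12, 10, 0 and 0 counts, and the second 14, 0, 0 and 0. The next fragment, starting at 75696515, had 35, 4, 0 and 0 counts and did not pass (-7.27 ± 2.73, adjusted p = 0.283). It entered the test through day 0 alone, so its direction was likewise set by the filter. Both calls were lost with DESeq2 (adjusted p = 0.993 each) and with any 1 library of the OctSox line left out.

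In the YY1 line 113 fragments at 2 to 20 Mb were tested between days and edgeR called 0, beside 0.467% of all 428. Of the 113, 13 had an unadjusted p below 0.05, beside 32 of all 428, and DESeq2 called 0 of the 113. Leaving out replicate 1 of day 3 gave 5 calls of 546, among 64 of all 1104, and leaving out replicate 2 of day 3 gave 2 of 660, among 3 of all 1321. The smallest p belonged to the fragment starting at 90260030, with 15, 0, 12 and 9 counts (log2 fold change 5.01 ± 1.87, adjusted p = 0.449). The next were those at 76993744, with 29, 0, 18 and 10 counts, and at 83112605, with 5, 3, 24 and 1, at the same adjusted p. Each had replicates of 1 day far apart. Over both lines edgeR called 0 of 231 between days, and 0% of all 659 (9 of the 231 unadjusted beside 20 of all 659, and 0 by DESeq2). The fragment starting at 84346661 came first there, with 43 counts in replicate 1 of day 3 in the OctSox line, 11 in the same replicate of the YY1 line and 0 elsewhere (6.91 ± 2.34, adjusted p = 0.523). It was followed by those at 75696515 and 91116651, with values of -7.53 ± 3.07 and -6.83 ± 2.85 (adjusted p = 0.992 each) and no counts at day 3. The fragment at 84346661 had none at day 0, so the filter on low counts set the direction of all of these values. For the difference in day effect between lines edgeR called 0 of 231, again 0% of all (16 of the 231 unadjusted beside 36 of all 659, and 0 by DESeq2). The smallest p there belonged to the fragments at 99966411, 100795949 and 108938766 (adjusted p = 0.570 each), which had counts in 3, 2 and 3 of the 8 libraries.

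Sums over windows have more counts behind them, but no window at 2 to 20 Mb passed the edgeR test in any comparison. In the OctSox line 0 of 36 windows were called between days, and 0% of all 117 windows tested (0 of the 36 had an unadjusted p below 0.05, beside 4 of all 117, and DESeq2 called 0). The smallest p was that of the higher side window 5 to 6 Mb, with 0.754%, 1.68%, 0.712% and 0.187% of counts (log2 fold change -1.37 ± 0.82, adjusted p = 0.977). The day 3 libraries were both lower, but the day 0 replicates lay over 2 times apart.

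In the YY1 line edgeR called 0 of 36 windows between days, and 0% of all 116 (4 of the 36 unadjusted beside 23 of all 116, and 1 by DESeq2, among its 12 of all 116). The higher side window 8 to 9 Mb had 1.70%, 1.87%, 1.26% and 0.567% of counts (log2 fold change -1.42 ± 0.48, adjusted p = 0.152). The lower side window 6 to 7 Mb, part of the crest there, had 1.79%, 1.68%, 1.39% and 0.816% (-1.14 ± 0.43, adjusted p = 0.161). In both windows the day 3 libraries lay below the day 0 libraries and far from each other. The higher side window 4 to 5 Mb had 0.878%, 0.949%, 0.628% and 0.213% (-1.50 ± 0.54, adjusted p = 0.161). Without replicate 1 of day 3, which leaves the shallow library alone on day 3, 20 of the 36 windows were called, among 53 of all 117, and without replicate 2 of day 3, 11 were, among 17 of all 119. The lone library is then assumed to vary like the others.

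The windows leaned to lower values at day 3, and the number below 0 depended on the scaling. In the YY1 line 33 of 36 had a negative log2 fold change after edgeR's TMM scaling, beside 48.3% of all 116 windows. Their median was -0.67 beside 0.13 over all. With total counts in place of TMM factors 24 of 36 were negative, beside 30.2% of all, with a median of -0.14 beside 0.67. In the OctSox line 24 of 36 were negative under TMM, beside 49.6% of all (median -0.23 beside 0.03). With total counts 21 were, beside 43.6% (-0.11 beside 0.20). The median of the 36 thus lay below that of all windows under either scaling. Contacts beyond 20 Mb on the same chromosome made up 14.6% to 18.9% of counts at day 0 and 22.3% to 32.8% at day 3. The windows with the smallest p over both lines were 15 to 16 Mb on the lower side (-1.17 ± 0.47, adjusted p = 0.321), 5 to 6 Mb on the higher side and 19 to 20 Mb on the lower side (-1.01 ± 0.46 for the last, adjusted p = 0.330 for both). Over both lines edgeR called 0 of 36 windows, beside 0.84% of all 119 windows (7 of the 36 unadjusted beside 17 of all 119, and 0 by DESeq2). Without replicate 1 of day 3 in the OctSox line 2 of the 36 were called, among 9 of all 119.

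**Figure D5:**
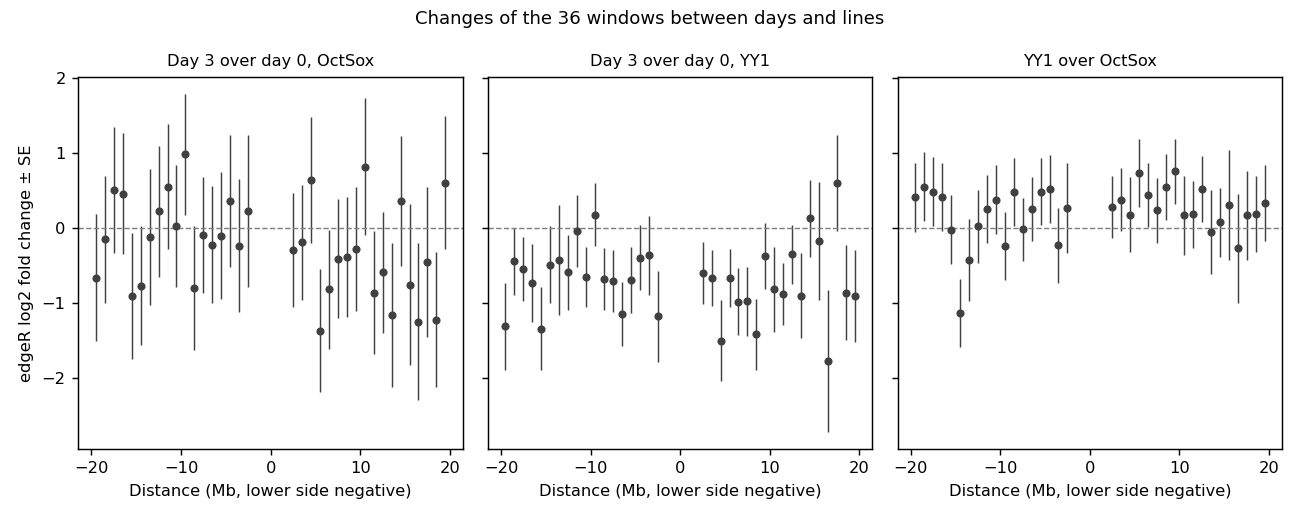
The edgeR log2 fold change ± SE (y axis) of each of the 36 windows against distance from the viewpoint (x axis, Mb, lower side negative), for day 3 over day 0 in each line and for the YY1 line over the OctSox line. No window passed the test. In the middle panel 33 of 36 values are below 0, beside 48.3% of all 116 windows tested. With total counts as library size 24 of 36 are, beside 30.2%.

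Between lines edgeR called 0 of 36 windows, beside 0.84% of all 119 (1 of the 36 unadjusted beside 9 of all 119, and 0 by DESeq2). The window with the smallest p was 14 to 15 Mb on the lower side, with 0.693%, 2.26%, 0.664% and 1.37% of counts for OctSox and 0.588%, 0.385%, 0.564% and 0.426% for YY1 (log2 fold change -1.13 ± 0.46, adjusted p = 0.370). All OctSox line libraries were above all YY1 line libraries. This window holds the fragment at 80690671, which made up 46.1%, 66.0%, 17.3% and 77.3% of its counts in the OctSox line. Without that fragment the window had 0.374%, 0.770%, 0.549% and 0.311% for OctSox and 0.586%, 0.380%, 0.541% and 0.284% for YY1, and the lines overlapped. The difference in means went from -0.757 to -0.0535 percentage points, a comparison chosen after the values were seen. The next windows, 9 to 10 and 5 to 6 Mb on the higher side, had log2 fold changes of 0.75 ± 0.44 and 0.73 ± 0.45 (adjusted p = 0.737 each). For the difference in day effect edgeR called 0 of 36 windows, and 0% of all 119 (1 of the 36 unadjusted beside 12 of all 119, and 0 by DESeq2). The smallest p was that of the higher side window 4 to 5 Mb (-2.22 ± 0.95, adjusted p = 0.288), ahead of 10 to 11 and 19 to 20 Mb on the same side (-1.65 ± 1.03 and -1.56 ± 1.00, adjusted p = 0.699 each).

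For comparison, the wild-type Oct4 allele on chromosome 17 was read in the same lines and days. Of the 25150 chromosome 17 fragments, 9664 lie 2 to 20 Mb from that viewpoint. The viewpoints differ in chromosome and surrounding fragments as well as in mutation, so these cannot be told apart. The share of the wild-type allele was 25.8% ± 4.53, against 27.7% ± 4.10 for the mutated allele (SD, n = 8 libraries each), a difference of 1.96 percentage points. The mutated allele was higher in 5 of 8 pairs of line, day and replicate number, and an exact permutation of viewpoints within groups gave p = 0.384. The higher side held 43.2% ± 4.29 of these counts on chromosome 17 and 51.7% ± 3.66 on chromosome 11, where it has 5046 of 9664 and 4488 of 9276 fragments, respectively. The difference in shares turned to -2.69 percentage points with counts limited to 10 per fragment, and was 8.40 percentage points with nothing left out at the viewpoint, where the exact permutation p was 0.0262.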

How the data were processed

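The authors deposited raw whole-number counts for each HindIII fragment along chromosome 11 or 17, beside a list of fragment positions, per the file headers and labels; alignment used Bowtie and mm9, per the submitters' processing notes, and the counting step is not given in the sources used here. Counts are not corrected for PCR duplicates. The viewpoint and 1 neighbour a side were left out of shares. The members and lists were chosen with earlier results of these data known. Measures were compared by exact permutation, and windows and fragments over the whole chromosome by edgeR 4.0.16 (R 4.3.3; TMM, filterByExpr with a minimum count of 10, Benjamini-Hochberg threshold 0.05), with DESeq2 1.42.0 as an alternative. An edgeR SE is the log2 fold change over the square root of its F statistic. Named were, per line, the 3 windows of highest and lowest density and 5 fragments of largest mean share; fragments counted in all libraries; and calls or, failing those, the smallest p. The stretches compared between sides, the split by fragment number and the window without its leading fragment were added after seeing the data. Simulated counts were drawn once per comparison from the dispersions that edgeR had fitted, with 23 windows changed in each. On them edgeR recovered 0% to 58.3% of windows changed 4-fold and 45.5% to 90.9% of those changed 16-fold by comparison. For fragments it recovered 0% to 4.65% and 0% to 35.7%, with 0 false calls. Real counts need not follow that model, so the 0 false calls do not give the error rate of the real tests. The annotation used here is of another build, so no gene was assigned.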

Additional observations from a re-analysis of the deposited data

Results flagged for a closer look

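The higher side window 4 to 5 Mb from the viewpoint changed in opposite directions in the lines, with every day 3 library beyond every day 0 library. Its mean share was 0.359 percentage points higher at day 3 in the OctSox line and 0.493 percentage points lower in the YY1 line (a difference of -0.493). The shares were 0.587% and 0.337% against 0.801% and 0.841% in the OctSox line, and 0.878% and 0.949% against 0.628% and 0.213% in the YY1 line. Tested as a difference in day effect by edgeR, the log2 value was -2.22 ± 0.95 (SE) with an adjusted p of 0.288, which does not pass. Of the 36 windows and 7 measures searched for such opposite separation, this window was the only one that showed it. With 2 libraries per day in each line, such separation can arise with no day effect. How often it would among so many was not tested.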

How the results depend on the processing

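Leaving out libraries in turn gave, for day differences, -5.75 to 0.0735 percentage points for the whole share, -1.53 to 0.97 for the lower side, -0.121 to 0.0409 for the lower slope and -0.0670 to 0.0793 for the higher slope. For line differences it gave -0.32 to 5.50 for the whole share, -1.14 to 1.36 for the lower side, -0.0937 to 0.0687 for the lower slope and -0.121 to 0.0254 for the higher slope. With 20 kb around the viewpoint left out, the lower side day difference was 0.23. Counting each covered fragment once gave -0.64 for the higher side's part between lines, day slopes of 0.0236 (lower) and -0.0772 (higher), a higher slope of 0.12 between lines, -1.91 for chromosome 11 minus 17 and 0.14 for the log2 side ratio (exact p = 0.0234); it gives no count of covered fragments at fixed depth. A limit of 10 counts per fragment gave a lower slope of 0.0542 and a higher slope of 0.0211 between lines, a higher slope of -0.0371 between days, -2.69 for chromosome 11 minus 17 and 0.18 for the side ratio (exact p = 0.0469). Fragments of at least 500 bp gave a side ratio of 0.21 (exact p = 0.0469), and leaving libraries out gave 0.17 to 0.26. With nothing left out at the viewpoint, chromosome 11 minus 17 was 8.40 (exact permutation p = 0.0262). With both shallow libraries left out, chosen after seeing the data, day differences were 0.0483 (lower slope), -0.10 (higher slope) and 30.6 covered fragments. The side ratio was then 0.27 (exact p = 0.0313). Every library left had a positive ratio, so that p was the smallest the sign-flip test allows.

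Called windows in the YY1 line between days were 1 under DESeq2 (12 of all 116) and 0 to 20 with a library left out (53 of all 117 at the highest), and over both lines 0 to 2 (9 of all 119 at the highest). The 2 fragment calls in the OctSox line between days fell to 0 under DESeq2, a minimum count of 5, no filter, the replicate block and each library left out; the YY1 line gave 0 to 5 with a library left out. The line comparison of fragments had 2 calls with total counts, 0 with a minimum count of 5, with no filter and with any library left out. Deviations of same-numbered libraries correlated at 0.0017 in the OctSox line and -0.35 in the YY1 line, and so showed no pairing by number. Both values involve a shallow library, whose counting error could hide a pairing, so they cannot exclude it. The replicate block changed no other call. The crossed pairing in the YY1 line called 0 windows and 0 fragments at 2 to 20 Mb, among 11 of all 116 windows and 1 of all 428 fragments. Where a setting changed a call, the cause was not tested. At this depth 2955 of the 9276 fragments had no count in any library.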
